A study of Mus musculus with 6 samples.

Results

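The melanocyte lineage genes described here are 8 genes that mark cells making melanin. They are the transcription factor Mitf, the receptor Kit, the enzymes Dct, Tyr and Tyrp1, the fibril protein Pmel, the melanosome protein Mlana and the transporter Slc45a2. They were chosen by name, as known genes of crest-derived and eye pigment cells, out of the 53801 genes counted. Of the 8, 6 passed the filter on low counts, and 17514 genes of the whole table did so. RNA was sequenced from maxillary prominences of mouse embryos at E12.5, in 3 wild-type (WT) samples and 3 samples of wnt1cre; Rosa26Dlx2/- embryos (Dlx2OE). The Dlx2OE embryos carry wnt1cre and 1 copy of a CAG-LSL-Dlx2-3xFlag cassette placed in the Rosa26 locus by CRISPR/Cas9, on a C57BL/6J background. Cre removes the stop before Dlx2, so that the neural crest and its descendants overexpress this homeobox factor. The labels do not say whether the WT embryos carried wnt1cre, so Cre and Dlx2 cannot be told apart in this comparison. The labels name 7 littermates as the source of tissue, and the published methods give another number. How many embryos each RNA sample holds is not stated, and p-values measure the spread between these samples.

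Melanocytes of the skin descend from the neural crest, directly or through Schwann cell precursors along nerves, and wnt1cre is active in that crest. Mitf turns on the enzymes and structural proteins of the melanosome, the organelle in which melanin is made, and Kit signalling lets melanoblasts survive and migrate. Dct is switched on early in melanoblasts, Tyr and Tyrp1 later. The pigment epithelium of the retina uses many of the same genes but comes from the optic cup, which is not neural crest.

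Total counts on genes were 30332754 to 31308813 in WT and 26155500 to 30570784 in Dlx2OE. The share of read pairs that the counting assigned to no annotated feature was 5.03 to 5.43% in WT, and 5.75%, 7.81% and 14.7% in Dlx2OE samples 1 to 3, so that Dlx2OE sample 3 stood apart. Dlx2 itself had 1255, 1056 and 1409 counts in WT against 3521, 4102 and 3336 in Dlx2OE. It was 3.03-fold higher in Dlx2OE (adjusted p = 0.00241 by the quasi-likelihood test of edgeR, with p-values adjusted by the Benjamini-Hochberg method), without overlap. Levels below are counts per 1000000 counts of a library (CPM) scaled by the TMM method, and a gene with 3 counts or fewer in a sample (0.0955 to 0.111 CPM) lay at the floor of detection. The floor covers counting error only, while SDs, SEs and 95% intervals hold the spread between samples. A call of higher needed both a log2 fold change over 1 and an adjusted p under 0.05. Values of single samples are listed by replicate number, from 1 to 3.

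The promoters of 3 pigment enzymes and of Mitf are shown because they hold the sequences through which the lineage factors are known to act. RefSeq windows of GRCm38.p6, the 250 bases before each start, held 5 of the 8 members, with 3 starts for Mitf, 2 for Kit and 1 each for Dct, Tyr and Tyrp1. Each window was searched on both strands for TCATGTG, the core of the M-box that MITF binds, and for TGACGTCA, the cyclic AMP response element. The lines below run from 5′ to 3′ on the strand of the gene, and capitals mark the match.
Dct, chr14:118052364-118052424, minus strand: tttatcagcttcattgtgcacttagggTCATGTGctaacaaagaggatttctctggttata
Tyr, chr7:87493513-87493561, minus strand: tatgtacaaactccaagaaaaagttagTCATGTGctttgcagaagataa
Tyrp1, chr4:80834139-80834199, plus strand: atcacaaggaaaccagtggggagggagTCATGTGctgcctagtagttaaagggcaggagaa
Mitf, chr6:97991603-97991664, plus strand: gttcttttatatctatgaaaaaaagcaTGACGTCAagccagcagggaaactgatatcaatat
The match began 151 bases before the start in Dct, 22 in Tyr and 47 in Tyrp1, and Dct held a further match on the opposite strand, 232 bases before the start. TCATGTG was present in 1068 of 32851 windows of all genes (3.25%), and in none of the 5 windows of Mitf and Kit. In Mitf, TGACGTCA lay 153 bases before the most downstream of its 3 starts, and 1.55% of all windows held it. A search for TTCAAAG, a sequence bound by LEF1 and its relatives and present in 4.46% of all windows, gave no match in the 8 windows of the members. Other forms of the LEF1 site were not searched, so the windows may still hold such a site. A match here is a run of letters and not a measured binding site.

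Of the 8 members, 2 were called higher in Dlx2OE, Dct and Pmel, and none was called lower. Across the 17514 genes tested, 1.5% were called higher. By the fitted values Dct was 4.52-fold, Pmel 4.11-fold and Tyr 6.91-fold higher, Tyr without passing the test. Kit and Mitf, the members at the highest CPM in WT, gave 1.06- and 1.37-fold and did not pass it. In bulk RNA, more cells of a type and more RNA per cell cannot be told apart.

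Dct, dopachrome tautomerase, converts an intermediate of melanin synthesis and is a usual marker of melanoblasts (ENSMUSG00000022129, GRCm38 chr14:118012790-118052244, minus strand). Its counts were 19, 20 and 16 in WT, which is 0.649, 0.664 and 0.513 CPM. In Dlx2OE they were 97, 72 and 74, which is 3.27, 2.29 and 2.73 CPM. All 3 Dlx2OE samples lay above all 3 WT samples, and the spread within each genotype was small beside the gap. Dct rose from 0.609 ± 0.0830 to 2.77 ± 0.491 CPM (SD, n = 3), a log2 fold change of 2.18 with SE 0.278 (95% interval 1.54 to 2.82, edgeR adjusted p = 0.0104). Without WT sample 2 the log2 fold change was 2.24, with an edgeR adjusted p of 0.0629, and the call was lost.

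Tyr, tyrosinase, catalyses the first and limiting step of melanin synthesis (ENSMUSG00000004651, chr7:87424771-87493512, minus strand). Its counts were 2, 7 and 1 in WT against 36, 12 and 21 in Dlx2OE. A pair of the WT samples lay at or under the floor, and Tyr entered the test only through its Dlx2OE counts. WT stood at 0.111 ± 0.107 CPM and Dlx2OE at 0.791 ± 0.417 CPM, and the samples did not overlap. The log2 fold change was 2.79 with SE 0.698 (95% interval 1.18 to 4.40), and its edgeR adjusted p of 0.0543 missed the threshold. The Wald test of DESeq2 gave an adjusted p of 0.0192, and edgeR without the filter gave 0.0182.

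Tyrp1, which acts after Dct in making brown and black pigment, was at or near the floor (ENSMUSG00000005994, chr4:80834123-80851719, plus strand). Its counts were 0, 4 and 8 in WT samples 1 to 3 and 1 in each Dlx2OE sample, 12 in all against 3, and 4 of the 6 samples lay at or under the floor. The groups overlapped, the exact two-sided permutation test gave p = 0.4, and 3 samples against 3 cannot go below 0.1. Tyrp1 did not pass the filter on low counts.

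**Figure D1:**
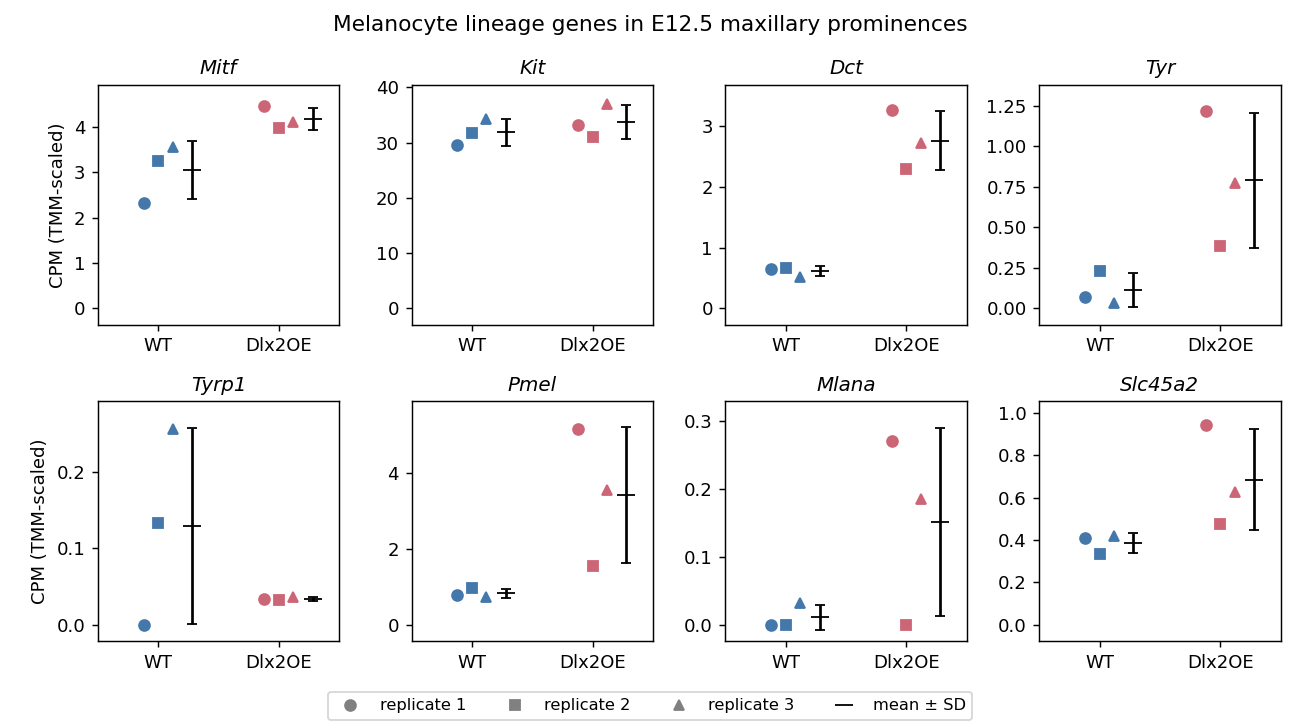
TMM-scaled CPM of the 8 members in each of the 3 WT and 3 Dlx2OE samples, with each panel on its own linear axis, markers for the replicate and bars for the mean ± SD. The 3 Dlx2OE points lie above the 3 WT points for Mitf, Dct, Tyr, Pmel and Slc45a2, while those of Kit (31.8 and 33.7 CPM on average), Tyrp1 and Mlana overlap.

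Pmel forms the fibrils on which melanin is laid down (ENSMUSG00000025359, chr10:128704195-128720238, plus strand). It had 23, 29 and 23 counts in WT against 153, 49 and 96 in Dlx2OE. Dlx2OE sample 1 was the highest and sample 2 the lowest of the Dlx2OE group, yet even sample 2 lay above every WT sample. Pmel rose from 0.829 ± 0.118 to 3.42 ± 1.80 CPM (SD, n = 3), with a log2 fold change of 2.04 and SE 0.439 (95% interval 1.03 to 3.05, edgeR adjusted p = 0.0381). Leaving out WT sample 1, 2 or 3 or Dlx2OE sample 3 lost the call, with edgeR adjusted p-values of 0.117, 0.138, 0.0686 and 0.0919. Genes on the opposite strand, Dgka and Cdk2, cover 6.06% of the exons of Pmel, and the strand setting of the counting was not stated.

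Mlana, a protein of early melanosomes that binds Pmel, had 0, 0 and 1 counts in WT against 8, 0 and 5 in Dlx2OE (ENSMUSG00000024806, chr19:29697824-29708634, plus strand). Dlx2OE sample 2, the sample with the lowest Tyr and Pmel of its group, had no read of Mlana. The exact two-sided permutation test gave p = 0.4, and the gene did not pass the filter.

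Slc45a2 is a melanosomal transporter needed for dark pigment (ENSMUSG00000022243, chr15:11000721-11029233, plus strand). Its counts were 12, 10 and 13 in WT against 28, 15 and 17 in Dlx2OE. The samples did not overlap, but the groups lay closer together than for Dct. It stood at 0.386 ± 0.0473 CPM in WT and at 0.683 ± 0.239 CPM in Dlx2OE, a log2 fold change of 0.82 with a 95% interval of -0.05 to 1.68 (edgeR adjusted p = 0.191).

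Mitf, the factor that directs the lineage, was counted as 1 gene over all its promoters, so that the melanocyte form is not separated from forms made in other cells (ENSMUSG00000035158, chr6:97807052-98021349, plus strand). It had 68, 98 and 111 counts in WT against 132, 125 and 111 in Dlx2OE. These are 2.32, 3.25 and 3.56 CPM in WT and 4.46, 3.98 and 4.10 CPM in Dlx2OE. The Dlx2OE samples were all above the WT samples in CPM, although WT sample 3 and Dlx2OE sample 3 had the same count. The log2 fold change was 0.46 with SE 0.234 (95% interval -0.08 to 0.99, edgeR adjusted p = 0.232), so that values from 0.943- to 1.99-fold lie within its interval.

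Kit, the receptor for Kit ligand, was the only member above 10 CPM in any sample (ENSMUSG00000005672, chr5:75574916-75656722, plus strand). Its counts were 863, 957 and 1069 in WT against 981, 972 and 1004 in Dlx2OE. The groups overlapped throughout. The levels of 31.8 ± 2.40 CPM in WT and 33.7 ± 3.10 CPM in Dlx2OE gave a 1.06-fold difference with a 95% interval of 0.882 to 1.27 (edgeR adjusted p = 0.655). An increase of the size seen for Dct lies outside that interval for Kit of the whole tissue. Kit is also a gene of other cells, so its level in melanoblasts alone cannot be read from these counts.

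Every Dlx2OE sample was above every WT sample in CPM for 5 of the 8 members, Mitf, Dct, Pmel, Tyr and Slc45a2, where 16.7% of all tested genes showed this. Each of the 5 had an exact two-sided permutation p of 0.1, the smallest that 3 samples against 3 allow. Without Dlx2OE sample 3, the library that stood apart in its unassigned reads, the log2 fold change was 2.19 for Dct, 2.01 for Pmel, 2.80 for Tyr, 0.87 for Slc45a2, 0.47 for Mitf and 0.01 for Kit, and Dct alone was called (edgeR adjusted p = 0.0267).

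**Figure D2:**
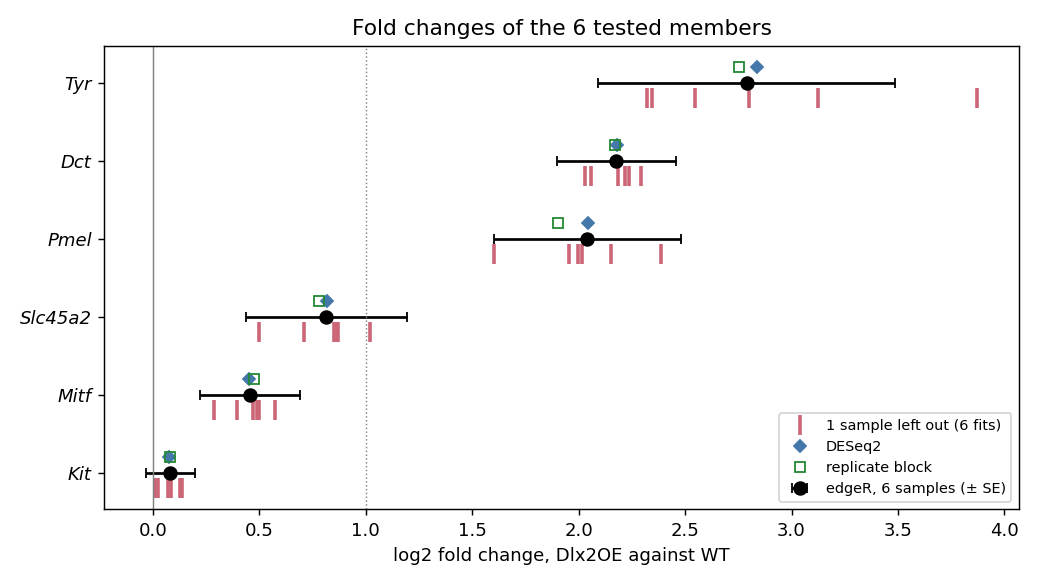
Log2 fold change (Dlx2OE against WT) of the 6 tested members. Black points are edgeR values with SE from 6 samples, red ticks the 6 fits with 1 sample left out, diamonds DESeq2 and open squares the fit with a replicate block, and the dotted line marks the fold threshold of 1. Dct, Pmel and Tyr lie beyond 1 under each fit drawn, and Mitf and Kit lie below it.

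The order of the members by level per kilobase of exon differed between genotypes below the first rank, which Kit held in both. In WT the mean level was 3.57 CPM per kb for Kit, 0.491 for Mitf, 0.362 for Pmel, 0.129 for Slc45a2, 0.103 for Dct and 0.0459 or less for Tyrp1, Tyr and Mlana. Among neighbours in that order, the samples separated between Kit and Mitf and between Pmel and Slc45a2, and the other neighbours overlapped. In Dlx2OE the mean level was 3.78 CPM per kb for Kit, 1.49 for Pmel, 0.674 for Mitf, 0.469 for Dct, 0.229 for Slc45a2, 0.143 for Mlana, 0.111 for Tyr and 0.0121 for Tyrp1. Pmel and Mitf overlapped there, as did Slc45a2 with Mlana and Mlana with Tyr, while the other neighbours separated. Dct thus stood below Slc45a2 on average in WT and above it, without overlap, in Dlx2OE.

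Ratios of counts within a library compare the pigment genes with Mitf, free of library scaling. For every 100 counts of Mitf there were 27.9, 20.4 and 14.4 counts of Dct in WT, against 73.5, 57.6 and 66.7 in Dlx2OE samples 1 to 3. Per 100 Mitf, Pmel counts went from 28.1 ± 6.69 to 80.5 ± 38.7 and Tyr counts from 3.66 ± 3.18 to 18.6 ± 8.84. These 3 ratios did not overlap between genotypes, each with an exact permutation p of 0.1. Slc45a2 per 100 Mitf was 13.2 ± 3.94 in WT and 16.2 ± 4.67 in Dlx2OE and overlapped. Set against Dct instead, Pmel was at 137 ± 13.5 counts per 100 Dct in WT and 119 ± 45.9 in Dlx2OE, and Tyr at 17.3 ± 15.5 and 27.4 ± 10.3. Both of these overlapped, with exact permutation p-values of 0.7 and 0.4. Tyrp1 was at 0, 20 and 50 counts per 100 Dct in WT and at 1.03, 1.39 and 1.35 in Dlx2OE, which overlapped because WT sample 1 had none.

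The factors and signals that set up melanoblasts formed a list of 20 genes, of which 18 were tested. At an adjusted p under 0.05, at any fold change, 6 of the 18 were higher and none lower, where 524 genes were higher and 606 lower among the 17514 (6.45% in all). The median log2 fold change of the 18 was 0.34, with 13 above 0, and that of all tested genes was 0.00. With 1 sample left out, between 1 and 7 members of this list were higher, and the count was 1 without WT sample 1 or WT sample 2. Many of these genes also act in facial mesenchyme, epithelium or glia, and the bulk counts do not say which cells held them.

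Lef1, a nuclear partner of Wnt signalling that can act on the Mitf promoter, rose from 14.0 ± 0.721 to 131 ± 28.2 CPM, a log2 fold change of 3.23 (edgeR adjusted p = 0.000493), and stayed past the threshold in all 6 fits with 1 sample left out. Asip, the secreted antagonist of the melanocortin receptor, rose from 1.38 ± 0.136 to 4.82 ± 1.49 CPM, a log2 fold change of 1.80 (edgeR adjusted p = 0.0187). It is annotated over a span that shares 12.6% of its exon length with other genes, and C57BL/6 mice carry the nonagouti allele. Tfap2a, which works with MITF on pigment genes and is also expressed in facial crest and epithelium, rose from 12.8 ± 0.539 to 35.8 ± 13.5 CPM, with an edgeR adjusted p of 0.0207. Zeb2, a zinc finger repressor of crest and melanocytes, rose from 96.8 ± 14.0 to 156 ± 8.54 CPM, with an edgeR adjusted p of 0.0257. The other 2 were Adamts20, a protease needed for melanoblast survival, and Tfap2b, with log2 fold changes of 0.72 and 1.58 (edgeR adjusted p = 0.0327 and 0.0464). Leaving out WT sample 1 or WT sample 2 raised the adjusted p of each of these 5 genes over 0.05. The highest edgeR adjusted p with 1 sample left out was 0.0957 for Asip and 0.167 for Tfap2b. The same held for Zeb2, Adamts20 and Tfap2b without Dlx2OE sample 2 or Dlx2OE sample 3, and for Asip without Dlx2OE sample 2. Zeb2 and Adamts20, at a log2 fold change under 1, were not among the genes called higher.

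Sox10 and Pax3 drive Mitf expression in the crest. Sox10 had 1055, 816 and 1132 counts in WT against 342, 1202 and 1721 in Dlx2OE. The Dlx2OE samples thus spread on both sides of WT, and sample 1, the one with the most Pmel, Tyr and Dct, had the least Sox10. Its log2 fold change was 0.19 (edgeR adjusted p = 0.816). Pax3 had 325, 145 and 544 counts in WT against 2148, 1227 and 668 in Dlx2OE, which did not overlap. Pax3 had a log2 fold change of 2.03 with SE 0.508, an edgeR adjusted p of 0.0544 and a DESeq2 adjusted p of 0.0233. Per 100 Sox10 counts, Dct stood at 1.80, 2.45 and 1.41 in WT and at 28.4, 5.99 and 4.30 in Dlx2OE, without overlap.

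The 2 ligand and receptor pairs of the lineage gave no call. Kitl, the ligand of Kit, was at 22.0 ± 2.99 CPM in WT and 33.1 ± 8.39 CPM in Dlx2OE, a log2 fold change of 0.59 with an edgeR adjusted p of 0.101. Edn3, the endothelin that expands melanoblasts, was at 26.3 ± 1.83 and 24.9 ± 2.85 CPM. Its receptor Ednrb had 2362, 1578 and 1831 counts in WT against 599, 2183 and 2557 in Dlx2OE, low in the same Dlx2OE sample as Sox10. Edn3 and Ednrb had edgeR adjusted p-values of 0.696 and 0.942. Foxd3, a crest factor, had no count in any of the 6 samples.

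Of 31 other genes of the melanosome and its transport, 27 were tested, with 1 higher and 1 lower at an adjusted p under 0.05 and a median log2 fold change of 0.14. Among all tested genes, 6.45% passed in either direction, so these counts lie near that share. The higher gene was Myo5a, the myosin that carries melanosomes, which rose from 92.6 ± 10.3 to 150 ± 22.4 CPM (edgeR adjusted p = 0.0315). The lower gene was Cd63, a tetraspanin of endosomes in most cells that also sorts Pmel, which went from 184 ± 18.0 to 113 ± 9.12 CPM (edgeR adjusted p = 0.0185). Neither reached the fold threshold of a call, and each had an adjusted p over 0.05 in 4 of the 6 fits with 1 sample left out, those without WT sample 1 or 2 or Dlx2OE sample 2 or 3. Both are read far above the pigment enzymes.

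Among 5 tested genes of this list under 3 CPM in WT, Trpm1 and Gpnmb were higher in every Dlx2OE sample, Slc24a4 was lower in every one, and Mlph and Slc24a5 overlapped. Of all tested genes, 16.7% were higher in every Dlx2OE sample, and the share lower in every one was not counted. Trpm1, a channel of melanocytes and retina that MITF activates, had 1, 11 and 7 counts in WT against 40, 26 and 25 in Dlx2OE. Gpnmb, a melanosome glycoprotein related to Pmel, had 4, 11 and 10 counts in WT against 35, 19 and 32 in Dlx2OE. Both genes passed the filter only through their Dlx2OE counts. Their log2 fold changes of 2.28 and 1.83 missed the threshold in edgeR (adjusted p = 0.0576 and 0.0558) and passed it in DESeq2 (adjusted p = 0.0205 and 0.0470). Oca2, a melanosomal anion channel, had 1 count in all of WT and 3 in all of Dlx2OE, and Gpr143, a pigment cell receptor, had 13 and 12. Slc24a5, a melanosomal exchanger, was at 2.82 ± 0.522 CPM in WT and 3.90 ± 0.742 CPM in Dlx2OE, with 39.5% of its exon length shared with Myef2 on the opposite strand. Slc24a4, a related exchanger, was at 1.28 ± 0.242 CPM in WT and 0.616 ± 0.133 CPM in Dlx2OE, a log2 fold change of -1.05 (edgeR adjusted p = 0.0790). Mlph, a linker of melanosomes to myosin, was at 1.17 and 1.15 CPM.

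The paralogs of Mitf did not pass the test. Tfe3 was at 34.6 CPM in WT and 34.9 CPM in Dlx2OE, Tfeb at 3.73 and 2.72 CPM and Tfec at 1.22 and 0.896 CPM. Their log2 fold changes were 0.01, -0.46 and -0.44, with edgeR adjusted p-values of 0.957, 0.264 and 0.470. The 4 other receptor tyrosine kinases of the class of Kit (Pdgfra, Pdgfrb, Csf1r and Flt3) had a median log2 fold change of -0.30, and none passed in edgeR. Csf1r and Flt3 were lower in every Dlx2OE sample, while Pdgfra and Pdgfrb overlapped. Csf1r was at 22.0 ± 0.963 CPM in WT and 14.0 ± 3.39 CPM in Dlx2OE, with adjusted p-values of 0.0754 in edgeR and 0.0146 in DESeq2.

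**Figure D3:**
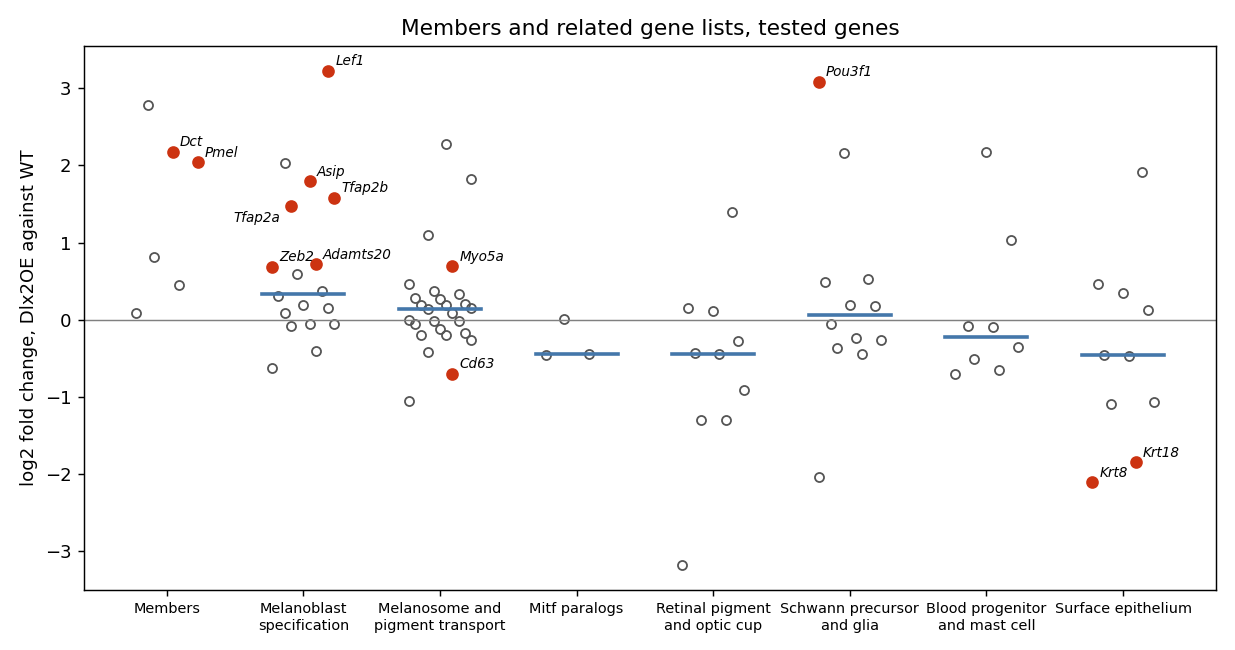
Log2 fold change (Dlx2OE against WT) of each tested gene in the members and 7 related lists. Filled red points passed an adjusted p of 0.05 in edgeR and carry their names, open points did not, and blue bars are list medians (none is drawn for the members). Lef1, at 3.23, is the highest point among the melanoblast specification genes, whose median is 0.34.

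Markers of other cells that use these genes were measured in the same samples. The 6 pigment members (Dct, Pmel, Tyr, Tyrp1, Mlana and Slc45a2) summed to 1.91, 2.32 and 1.99 CPM in WT and to 10.9, 4.74 and 7.90 CPM in Dlx2OE samples 1 to 3. The mean was 3.78-fold higher in Dlx2OE, and it stayed at 6.32 CPM without Dlx2OE sample 1, against 2.07 CPM in WT. Pmel and Dct made up most of that sum, at 0.829 and 0.609 CPM in WT and 3.42 and 2.77 CPM in Dlx2OE. Tyrp1, near the floor, was lower on average in Dlx2OE, at 0.130 CPM in WT and 0.0342 CPM in Dlx2OE.

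The 16 markers of retinal pigment epithelium and optic cup summed to 25.1, 118 and 78.4 CPM in WT and to 54.4, 19.7 and 22.4 CPM in Dlx2OE samples 1 to 3. On average, Lhx2, Otx2 and Six3 made up most of that sum. They were at 23.2, 17.4 and 14.5 CPM in WT and at 9.44, 1.91 and 5.90 CPM in Dlx2OE. Rpe65, a gene of the retinal pigment epithelium, had 3 counts in all of WT and 2 in all of Dlx2OE. Counts this low do not show whether such cells were in the tissue. The summed eye markers overlapped, with means of 74.0 CPM in WT and 32.2 CPM in Dlx2OE. None of the 10 tested passed in edgeR, whereas Otx2 and Ttr were lower in DESeq2 (adjusted p = 0.0244 and 0.00271). Ttr, which did not pass the filter of edgeR, had 110, 13 and 7 counts in WT against 0, 6 and 1 in Dlx2OE. The eye markers were highest in WT sample 2, and the pigment members in Dlx2OE sample 1.

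The 14 markers of Schwann cell precursors and crest glia summed to 334 to 343 CPM in WT and to 271, 354 and 479 CPM in Dlx2OE samples 1 to 3. These groups overlapped, and the order within Dlx2OE differed from that of the pigment members, which were highest in sample 1. Serpine2 and Erbb3 made up most of the glial sum on average, at 152 and 73.1 CPM in WT and 126 and 70.2 CPM in Dlx2OE. Fabp7 was at 13.9, 19.3 and 9.04 CPM in WT and at 4.56, 56.4 and 128 CPM in Dlx2OE. Of the 12 tested, 1 passed, where 6.45% of all tested genes did so in either direction. This was Pou3f1, a POU factor of promyelinating Schwann cells that is also made elsewhere, which rose from 0.639 ± 0.0892 to 5.47 ± 2.73 CPM (edgeR adjusted p = 0.0116). Its call was lost without WT sample 1 or WT sample 2, with an adjusted p of up to 0.0717 in edgeR. S100b, a glial calcium-binding protein gene, was lower in every Dlx2OE sample, at 2.29 ± 1.26 CPM in WT and 0.556 ± 0.299 CPM in Dlx2OE. Its log2 fold change of -2.04 had an adjusted p of 0.0612 in edgeR and 0.00485 in DESeq2.

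Kit is also a gene of blood progenitors and mast cells. The 12 markers of those cells summed to 100.3, 90.2 and 90.1 CPM in WT and to 81.1, 71.6 and 64.8 CPM in Dlx2OE samples 1 to 3, with every Dlx2OE sample below WT. Cd34 and Gata2 made up most of that sum, at 49.0 and 24.7 CPM in WT and 38.4 and 15.7 CPM in Dlx2OE. None of the 8 tested passed in edgeR. Gata1, a factor of red cell and mast cell progenitors, was at 1.01 CPM in WT and 0.954 CPM in Dlx2OE. Cpa3, a mast cell protease gene, had 21, 25 and 12 counts in WT against 175, 31 and 51 in Dlx2OE, with an edgeR adjusted p of 0.0815 and a DESeq2 adjusted p of 0.00554. Hdc, the histamine enzyme gene of mast cells, was also higher in every Dlx2OE sample, at 0.640 ± 0.224 CPM in WT and 1.31 ± 0.529 CPM in Dlx2OE (log2 fold change 1.03, edgeR adjusted p = 0.136). Cpa3 and Hdc were the 2 tested genes of this list with a log2 fold change above 0, and the other 6 lay below. Among those 6, Spi1 was lower in every Dlx2OE sample, at 3.17 CPM in WT and 1.94 CPM in Dlx2OE (edgeR adjusted p = 0.0896). Dlx2OE sample 1 was the highest for Cpa3, for Hdc and for Dct, Pmel and Tyr alike.

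As a description of the tissue, 14 genes of maxillary mesenchyme summed to 1801 to 2183 CPM in WT and 2298 to 2799 CPM in Dlx2OE. The series holds no other tissue, so this sum cannot test the tissue label. Of these 14, 3 were higher at an adjusted p under 0.05, where 524 of the 17514 genes were. They were the mesenchyme factors Twist1 (log2 fold change 0.65), Twist2 (1.69) and Alx4 (1.39), with edgeR adjusted p-values of 0.0402, 0.0152 and 0.0211. Each had an adjusted p over 0.05 without WT sample 1 or WT sample 2, Alx4 also without Dlx2OE sample 2, and Twist1, which lay under the fold threshold, also without any 1 of the Dlx2OE samples and under the replicate block (edgeR adjusted p = 0.062). Barx1, a homeobox gene of jaw mesenchyme in the same list, was lower in every Dlx2OE sample, at 241 ± 24.1 CPM in WT and 151 ± 59.2 CPM in Dlx2OE, with adjusted p-values of 0.153 in edgeR and 0.0419 in DESeq2. The 10 markers of surface epithelium summed to 768, 1391 and 1026 CPM in WT and to 1884, 591 and 605 CPM in Dlx2OE samples 1 to 3. Within Dlx2OE, sample 1 was thus the highest and sample 2 the lowest, the same order as for the summed pigment members. Krt5 and Krt14 made up most of the high sum of Dlx2OE sample 1, at 538 and 490 CPM. Epcam, Cdh1, Krt8, Krt18, Cldn6 and Perp were instead highest in WT sample 2, Cdh1 and Perp by little. Within Dlx2OE these genes too were highest in sample 1. Within that list Krt8 and Krt18 were lower in all 3 Dlx2OE samples, with log2 fold changes of -2.11 and -1.85 (edgeR adjusted p = 0.00939 and 0.0233). Krt18 lost its call without WT sample 2, Dlx2OE sample 2 or Dlx2OE sample 3. Krt5, of the basal epithelium, lay the other way, with every Dlx2OE sample above WT, at 71.3 ± 25.5 CPM in WT and 268 ± 233 CPM in Dlx2OE (log2 fold change 1.91, edgeR adjusted p = 0.0792). The part of these other cells in the values of the members was not tested.

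**Figure D4:**
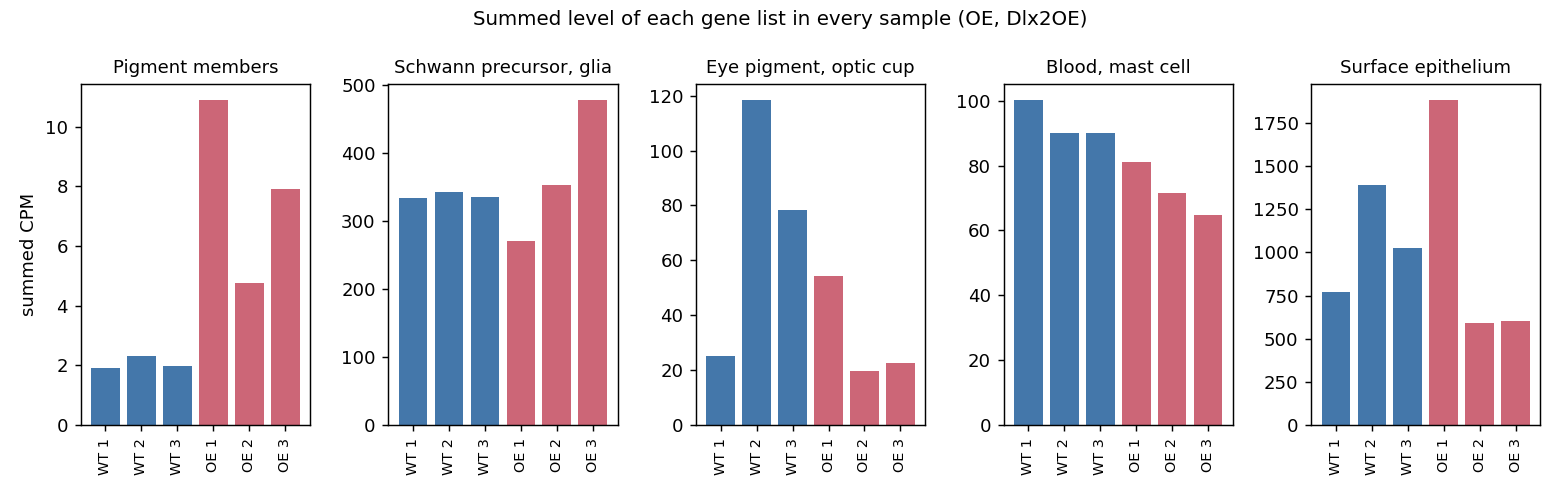
Summed CPM of 5 gene lists in each sample, each panel with its own linear axis from 0. The sum of the 6 pigment members, most of it Pmel and Dct, is higher in all 3 Dlx2OE samples (4.74 to 10.9 CPM) than in WT (1.91 to 2.32 CPM). The eye, glia and epithelium lists overlap, and the blood and mast cell list, most of it Cd34 and Gata2, is lower in Dlx2OE.

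The genes whose log2 CPM followed that of the 6 summed pigment members best over the 6 samples were Irx2 (Pearson r = 0.997), Slc5a6 (0.995), Gng4 (0.993), Mri1 (0.989) and Tfap2a (0.986). All points share the same libraries and the same division into 2 genotypes, and 140 of the 17514 genes had an r over 0.95, so that the order among them carries little weight. Irx2, an Iroquois homeobox factor, was at 4.17 ± 0.587 CPM in WT and 24.4 ± 11.9 CPM in Dlx2OE. Of the members, which are part of the sum or share its samples, Pmel had an r of 0.989, Dct 0.970, Tyr 0.958, Slc45a2 0.912, Mitf 0.802 and Kit 0.486. The same value was 0.797 for Pax3, 0.939 for Lef1 and -0.287 for Sox10.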

How the data were processed

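Total RNA of 6 samples was made into poly-A libraries with a kit that the labels name without a strand setting. Reads were mapped by the authors to mm10 with STAR (2.7.3a per the submitters' notes) and counted per gene with HTSeq (0.12.4), and the deposited values are raw counts per gene for 1 sample a file, without normalization. The annotation release is not given in the sources used here. Summary lines of unassigned reads served only to describe libraries. Symbols and positions came from GENCODE M21 (GRCm38), which held 53706 of 53801 identifiers.

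Groups and replicate numbers came from the sample titles. The test was that of edgeR 4.0.16 under R 4.3.3 (filterByExpr with minimum count 10, TMM factors, quasi-likelihood F test on genotype, Benjamini-Hochberg adjustment over 17514 genes), and it was tested on simulated data first. The study used DESeq2, which is an alternative here (version 1.42.0). Single values were compared by exact permutation of the 3 and 3 samples.

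The 8 members and all lists were chosen with earlier results of these data known. All members are named, together with preset lineage genes and up to 4 genes of smallest p in each list among those under 0.05, and the 5 genes most like the summed pigment members. A gene of the preset lineage genes is not reported here. Adamts20, Tfap2b, Foxd3, Slc24a4, Mlph, S100b, Krt5, Barx1, Hdc, Cd34 and Gata2 go beyond that rule and were chosen after their values were seen. The same holds for Otx2, Lhx2, Six3, Ttr, Serpine2, Erbb3, Fabp7, Csf1r, Flt3, Spi1, Krt14, Epcam, Cdh1, Cldn6 and Perp. Alternatives were DESeq2, RLE factors, library size alone, no filter, 10 counts in every sample, prior counts of 0.5 and 2 (the last chosen after the data were seen), a replicate block and each sample left out.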

Additional observations from a re-analysis of the deposited data

How the results depend on the processing

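None of the 6 tested members changed direction under any of the 14 alternatives (13 for Tyr, which was not tested under a minimum of 10 counts in every sample). The log2 fold change was 2.03 to 2.29 for Dct, 1.6 to 2.39 for Pmel, 2.27 to 3.87 for Tyr, 0.50 to 1.02 for Slc45a2, 0.29 to 0.57 for Mitf and 0.01 to 0.15 for Kit. Both prior counts rescale the fold and leave p as it was. Of the 12 alternatives that refit the test (11 for Tyr), the adjusted p was under 0.05 in 11, 7 and 2 for Dct, Pmel and Tyr, and in none for the other 3. The replicate block left 1 member called higher in place of 2, Dct (log2 fold change 2.17, adjusted p = 0.0318 in edgeR), while Pmel (1.90) and Tyr (2.75) had edgeR adjusted p-values of 0.0710 and 0.1. Same-numbered samples correlated at -0.0718, -0.211 and 0.0731 in their deviations from the group means, and unlike-numbered samples at -0.204 to 0.345. Deviations of 3 samples cancel within a group, so these values cannot decide whether the numbers pair the samples. With Tyr added, 3 members were called higher by DESeq2 and without the filter. Leaving out 1 sample gave 0 to 2 members called higher and 0 called lower.

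Across all genes, 262 were called higher and 284 lower. The counts were 447 and 440 with DESeq2, 506 and 497 without the filter, 524 and 606 at any fold change, and 39 to 642 and 35 to 531 with 1 sample left out, lowest without WT sample 2. Library size alone moved the median log2 fold change of all genes to 0.07. With DESeq2, 3 of 28 melanosome genes were higher at an adjusted p under 0.05, where 1055 of 19047 genes were. Dct and Pmel had 16 to 29 counts a library in WT, and Tyr 1 to 7, so these folds carry counting error beside the spread between samples. Tyrp1 and Mlana could not be compared at this depth.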
